A study of Mus musculus with 18 samples.

Results

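CpG methylation was followed at 10 germline genes of mouse embryonic stem cells (ESCs): Dazl, Ddx4, Mael, Asz1, Stk31, Sycp1, Sycp3, Hormad1, Brdt and Slc25a31. The list was drawn up by gene name with earlier results of these data known, as germ cell genes whose silencing by promoter methylation outside the germline is textbook knowledge. All 10 were found among the 37252 genes of the GENCODE vM1 annotation on the autosomes and the X chromosome (mouse build NCBIM37). The calls of each gene were split into a start region, 1 kb either side of the annotated start, and the rest of the gene body. RNA was not analysed here, so the data bear on methylation and not on whether any of these genes was silent or expressed.

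DNA methylation at CpGs is copied to the new strand after replication by Dnmt1, the maintenance methyltransferase. Most promoters rich in CpGs stay free of methylation in all cells, whereas a small group that includes many germ cell genes gains it around implantation and loses it again in primordial germ cells, the precursors of eggs and sperm. Promoters of this group often hold binding motifs of E2F6 and of E-box factors such as MGA and MAX, which recruit a repressor complex.

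The study deleted Dnmt1 in ESCs and read the methylome by whole-genome bisulfite sequencing, in which a sequenced CpG is called either methylated or unmethylated. There were 18 libraries: 9 labelled control, with a wild-type genotype, and 9 labelled Dnmt1 KO, at days 1, 3, 6, 9 and 11, with 2 biological replicates per genotype and day and 1 at day 6. The labels name E14 as the strain, whereas the methods describe floxed Dnmt1 cells of strain C57BL/6, grown in serum with LIF with or without feeder cells, whose Cre was induced with tamoxifen. The labels do not say whether the controls carried the floxed allele or saw tamoxifen, so if they were another line, genotype and line cannot be told apart.

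Libraries held between 7190722 and 11158414 calls, at 1.202 to 1.253 calls per listed cytosine. Autosomal CpG methylation was 71.4% to 79.0% in the control libraries, 69.9% and 70.2% in Dnmt1 KO at day 1, 33.4% and 34.6% at day 3, and 24.2% to 25.6% in the 5 libraries of days 6 to 11. These levels follow the labels. The 10 start regions together held 151 to 360 calls per library and the 10 gene bodies 911 to 1445. Single reads carry several neighbouring calls, whereas the intervals given with shares (95%, exact) treat each call as independent. They are thus too narrow where calls share a read, and they leave out the spread between libraries.

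The 10 start regions were rich in CpGs, with 50 in Asz1, 58 in Hormad1, 61 in Brdt, 66 in Sycp3, 67 in Stk31, 73 in Slc25a31, 75 in Mael, 91 in Ddx4, 101 in Sycp1 and 141 in Dazl. No other annotated gene starts within them. The 150 bases just upstream of the start are shown for 5 genes that span the range of methylation found there in control cells, with each CpG in capitals (NCBIM37, 5′ to 3′ on the strand of the gene).

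Stk31 (chr6:49345453-49345602, plus strand): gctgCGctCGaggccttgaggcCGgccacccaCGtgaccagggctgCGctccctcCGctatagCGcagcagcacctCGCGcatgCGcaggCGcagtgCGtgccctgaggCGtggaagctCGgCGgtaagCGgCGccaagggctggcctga
Ddx4 (chr13:113442519-113442668, minus strand): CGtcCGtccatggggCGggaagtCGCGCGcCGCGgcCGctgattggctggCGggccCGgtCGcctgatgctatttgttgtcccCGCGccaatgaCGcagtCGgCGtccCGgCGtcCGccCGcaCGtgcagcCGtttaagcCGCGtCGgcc
Hormad1 (chr3:95363449-95363598, plus strand): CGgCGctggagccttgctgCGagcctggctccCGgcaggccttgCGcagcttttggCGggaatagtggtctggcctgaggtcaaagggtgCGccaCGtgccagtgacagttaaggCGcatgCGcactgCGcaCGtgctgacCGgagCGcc
Dazl (chr17:50432925-50433074, minus strand): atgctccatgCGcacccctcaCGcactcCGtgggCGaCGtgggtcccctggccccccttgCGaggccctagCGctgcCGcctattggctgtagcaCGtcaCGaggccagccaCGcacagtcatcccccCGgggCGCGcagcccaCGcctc
Sycp1 (chr3:102740024-102740173, minus strand): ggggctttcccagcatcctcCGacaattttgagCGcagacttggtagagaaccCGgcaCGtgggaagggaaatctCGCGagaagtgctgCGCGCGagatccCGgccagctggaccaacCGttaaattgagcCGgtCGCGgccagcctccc

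The 5 stretches differed widely in control cells although each holds many CpGs. In Stk31 (17 CpGs) 1 of 52 control calls was methylated, and in Ddx4 (26 CpGs) 9 of 84. The stretch of Hormad1 (14 CpGs) had 12 of 29 methylated, that of Dazl (15 CpGs) 27 of 45 and that of Sycp1 (14 CpGs) 61 of 83. In Dnmt1 KO libraries of days 3 to 11, 0 of 43 calls were methylated in Stk31, 4 of 25 in Ddx4 (from 1 library), 3 of 31 in Hormad1, 10 of 16 in Dazl (from 2 libraries) and 2 of 18 in Sycp1. For Stk31, 3 counts, taken as a rough limit of a count of 0, would be 6.98%, which is below the exact upper limit used elsewhere. Both kinds of limit treat neighbouring calls as independent and are too low where calls share a read. The control calls of Hormad1 came from only 2 libraries. The stretch of Sycp1 thus held fewer methylated calls in the knockout libraries, those of Stk31 and Ddx4 had little methylation in either genotype, and that of Dazl gave no lower share in the few calls it had.

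An E-box (CACGTG, its own reverse complement) was searched from 250 bases upstream to 50 downstream of every gene start, and found in 8 of the 10 genes against 6.21% of all 37252 starts and 10.7% of the 14395 starts with at least 10 CpGs in that window. The E2F-type motif TCCCGC, on either strand, was found in 6 of 10 against 17.7% and 39.4%. Both motifs stood together in Ddx4, Mael, Sycp1, Sycp3, Hormad1 and Slc25a31, and in 1.72% of all starts and 4.24% of those with at least 10 CpGs. Stk31 and Brdt held the E-box alone, and Dazl and Asz1 had neither sequence in this window. The E-boxes in the printed stretches begin 29 bases upstream of the start in Ddx4, 94 in Sycp1, 120 in Stk31, and 57 and 20 in Hormad1. Each of them holds a CpG, which is itself a site of methylation. The search describes letters only, as no factor was measured.

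In control cells the germline start regions stood apart from other CpG-rich starts. Of the 26712 genes with at least 10 calls in each genotype at day 1 and at days 3 to 11, 14022 had at least 50 CpGs in the start region, a limit set at the lowest count among the 10 genes. The median control level of these CpG-rich starts was 7.22% (quartiles 3.07% and 14.8%), and 61.0% of them were below 10%. The 10 germline starts ranged from 28.0% in Ddx4 to 74.6% in Asz1 with a median of 55.8%, and only 9.31% of CpG-rich starts reached the level of Ddx4. Against these starts Ddx4 lay at the 90.7th percentile, Dazl at the 93.6th, and the other 8 genes between the 95.8th (Sycp3) and the 98.7th (Asz1). Start regions with fewer than 50 CpGs had a median of 80.1%, so the germline starts lay between both classes.

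**Figure D1:**
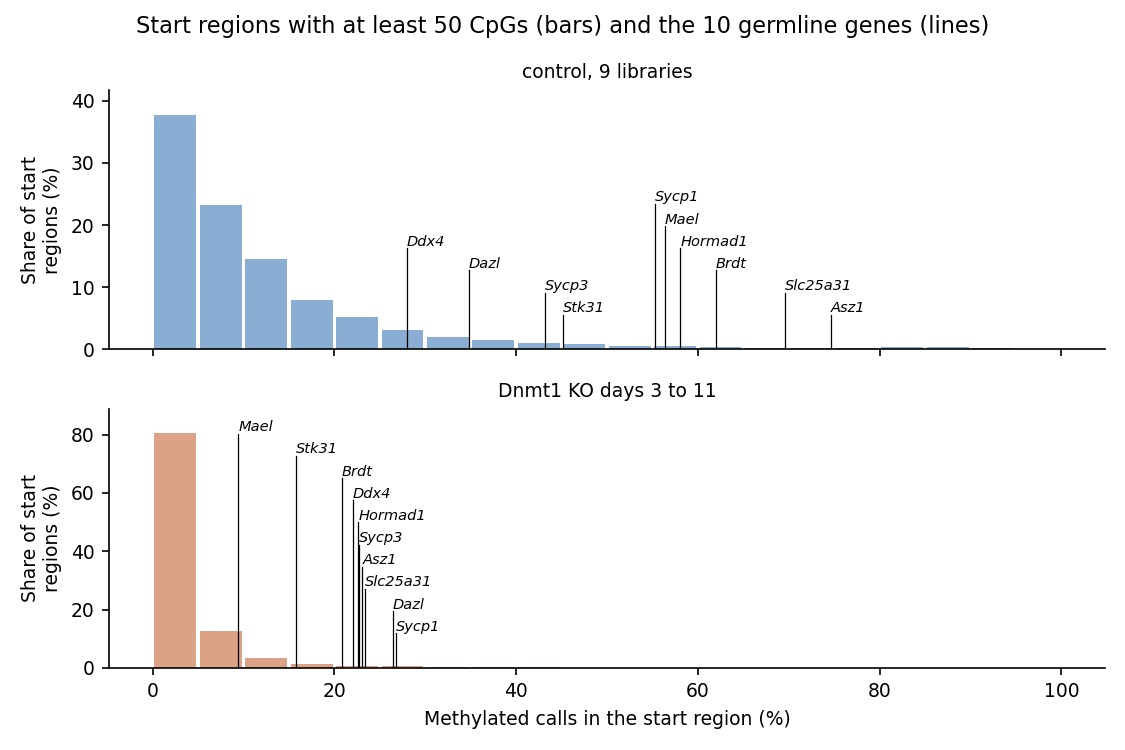
Distribution of methylation over the 14022 start regions with at least 50 CpGs, in the 9 control libraries (top) and in Dnmt1 KO days 3 to 11 (bottom). Bars give the share of start regions (%) per step of 5 points of methylated calls, and lines mark the 10 germline genes (line height carries no value), which sit in the upper tail in both panels, at 28.0% to 74.6% in control and 9.43% to 26.8% in Dnmt1 KO.

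The methylation of the germline starts fell to low but nonzero levels after day 1. Over the 10 genes summed, the share of methylated calls was 61.1% and 56.5% in Dnmt1 KO at day 1, against 61.3% and 42.1% in control. At day 3 it was 25.9% and 34.0% against 57.5% and 46.1%. At day 6 the lone libraries gave 11.21% (95% interval 8.06% to 15.1%) and 62.0% (54.9% to 68.8%). The genotypes overlapped at day 1 and were apart from day 3 on.

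At day 9 the share was 26.5% and 21.8% in Dnmt1 KO against 47.5% and 55.9% in control, and at day 11 17.4% and 19.8% against 52.3% and 35.0%. The 7 Dnmt1 KO libraries of days 3 to 11 ran from 11.21% to 34.0% (median 21.8%) and the 7 control libraries from 35.0% to 62.0% (median 52.3%), so the gap between the closest libraries was small. Averaged over the 5 days, the difference of Dnmt1 KO minus control was -23.6 points (-16.9 without day 6), and by day it was 7.08, -21.9, -50.8, -27.5 and -25.1 points. Replicates of a group differed considerably, with an SD of 13.6 points for control at day 1 and 12.2 at day 11. The gene bodies were steadier: 70.9% to 85.4% in control, 71.0% and 72.8% in Dnmt1 KO at day 1, 33.0% and 30.9% at day 3, and 19.9% to 24.1% in the 5 later libraries. Their difference averaged -46.2 points over the 5 days (-41.7 without day 6).

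**Figure D2:**
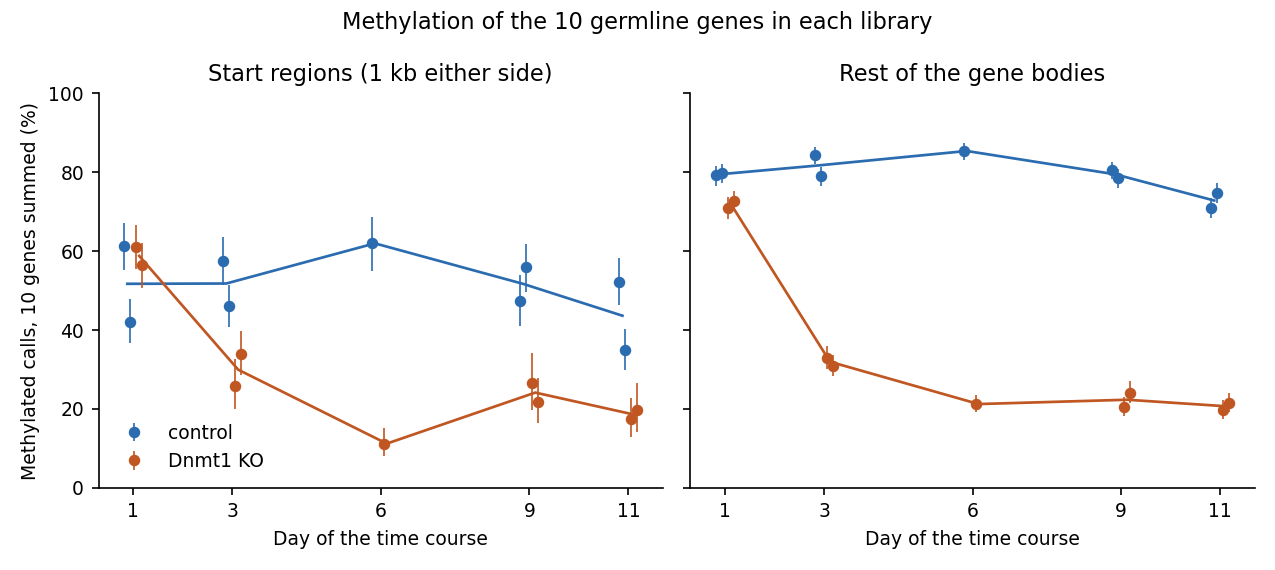
Methylated share of calls (%) summed over the 10 germline genes against the day of the time course, for start regions (left) and the rest of the gene bodies (right). Points are libraries with 95% exact intervals and lines join group means; from day 3 on each Dnmt1 KO library lies below each control library, closest at the starts (34.0% against 35.0%).

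Because each start region held few calls on a single day, days 3 to 11 were also treated as 1 level per genotype (7 libraries each), a grouping chosen after the values had been seen. Each gene was tested by a quasi-binomial fit over all genes, with the spread between libraries moderated by limma, and counted as lower or higher where it moved by 10 points or more with an adjusted p (Benjamini-Hochberg) below 0.05. With days 3 to 11 as 1 level, 8 of the 10 germline starts were lower in Dnmt1 KO, against 56.1% of the 26712 starts tested, and 0 were higher. The median difference of the 10 genes was -29.6 points and that of all starts -18.9. Of all starts, 8549 were CpG-rich and under 10% in control over all days, with little room to fall by 10 points. The 10 germline starts were at 28.0% or more there, so the shares and medians over all starts are not matched for control level. Within Dnmt1 KO, 8 of 10 were lower at days 3 to 11 than at day 1, against 36.5% of all starts. The 2 comparisons share the 7 later knockout libraries. Between the control libraries of days 3 to 11 and of day 1, 0 of 10 were lower (1 at an unadjusted p under 0.05) against 0% of starts, and between the genotypes at day 1 0 of 10 (3 at an unadjusted p under 0.05), again against 0%.

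Dazl and Ddx4 encode RNA-binding proteins of germ cells, Ddx4 being the mouse homologue of Vasa, and theirs were the start regions without a genotype call. Dazl (ENSMUSG00000010592.7, chr17:50418719-50432924, minus strand, 11 exons) had start levels of 12.2% to 59.4% over the 7 control libraries of days 3 to 11 (median 34.0%) and 11.11% to 50% in Dnmt1 KO (median 23.5%), which overlap almost wholly. Summed, these were 35.0% of 349 calls and 26.4% of 242, a difference of -8.51 ± 8.11 points (SE; adjusted p = 0.361, quasi-binomial test). It was -14.6 points without control day 11 replicate 2 and -2.48 points without control day 9 replicate 2. At day 1 the 2 control libraries gave 92.3% of 13 calls and 0% of 23 calls and the 2 knockout libraries 74.1% of 81 and 100% of 14. Within Dnmt1 KO, Dazl was lower at days 3 to 11 than at day 1 by -51.4 ± 10.9 points (adjusted p = 0.00323).

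The start region of Dazl was uneven. In control its upstream 1 kb was methylated in 70 of 94 calls (74.5%) and its downstream 1 kb in 64 of 291 (22.0%). In Dnmt1 KO days 3 to 11 the same parts gave 38 of 93 (40.9%) and 26 of 149 (17.4%), and most calls of the region fell in the downstream part. That part was methylated in 38 of 59 calls (64.4%) in Dnmt1 KO at day 1, from 1 library. Within 250 bp of the start, 83 of 133 control calls (62.4%) and 27 of 80 knockout calls of days 3 to 11 (33.8%) were methylated, each from 6 libraries. Why the whole region gave no genotype call was not tested. A second annotated coding start lies 707 bp from the one used.

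Ddx4 (ENSMUSG00000021758.7, chr13:113388541-113442518, minus strand, 22 exons) had 34.1% of 164 calls methylated in control and 22.0% of 100 in Dnmt1 KO at days 3 to 11, a difference of -12.1 ± 9.81 points (adjusted p = 0.288). Among libraries with at least 5 calls, control ran from 7.41% to 87.5% and Dnmt1 KO from 11.11% to 58.3%, again overlapping. Without replicate 2 of control day 11, the difference was -25.3 points and passed (adjusted p = 0.0279), and without replicate 2 of control day 3 it shrank to -6.97 points (adjusted p = 0.573). Within 250 bp of its start Ddx4 had only 16 of 176 control calls methylated (9.09%, 95% interval 5.29% to 14.3%), the lowest of the 10 genes. At 250 to 750 bp upstream 18 of 27 were. In Dnmt1 KO days 3 to 11 these parts gave 6 of 31 (19.4%, from 2 libraries) and 9 of 25 (36%).

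Mael, Asz1 and Stk31 belong to the piRNA pathway, in which small RNAs guide the silencing of transposons in the male germline, and all 3 were lower in Dnmt1 KO. Asz1 (ENSMUSG00000010796.5, chr6:18000964-18059061, minus strand), an ankyrin-repeat protein of the granules where piRNAs are made, showed the largest fall of the 10. Its 7 control libraries of days 3 to 11 ran from 60.0% to 100% (median 85.7%) and the 6 knockout libraries with at least 5 calls from 15% to 45.5% (median 22.1%), with no overlap. Summed, 81.5% of 81 calls against 23.1% of 104 differed by -58.4 ± 8.01 points (adjusted p = 1.35e-05). At day 1 Asz1 was at 92.9% and 100% in Dnmt1 KO and 57.1% and 77.3% in control, a difference that did not pass correction (29.5 ± 10.1 points, adjusted p = 0.632).

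Mael (ENSMUSG00000040629.3, chr1:168131516-168168875, minus strand, 12 exons), a protein needed for transposon silencing, reached the lowest level of the set. Control libraries of days 3 to 11 ran from 25% to 100% (median 57.1%) and knockout libraries from 0% to 25% (median 13.3%), touching at 25%. Summed, 53.0% of 185 control calls and 9.43% of 106 knockout calls were methylated, a difference of -43.5 ± 7.58 points (adjusted p = 0.000177). At day 1 Dnmt1 KO was at 51.0% of 49 calls and 30.8% of 26, and the only control library with calls at 89.5% of 19. A gap was thus already seen at day 1, on few control calls. Within 250 bp of the start 0 of 37 knockout calls of days 3 to 11 were methylated (exact 95% upper limit 9.49%, calls from 3 of 7 libraries), against 34 of 104 in 7 of the 9 control libraries of all days.

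Stk31 (ENSMUSG00000023403.8, chr6:49345603-49419500, plus strand, 24 exons), a testis kinase with a Tudor domain, had 38.8% of 196 control calls and 15.8% of 190 knockout calls methylated at days 3 to 11, a difference of -23.0 ± 6.97 points (adjusted p = 0.00663). Control libraries ran from 25.8% to 100% (median 45.5%) and knockout libraries from 7.14% to 26.2% (median 13.3%), overlapping at their edge. As in the sequence printed above, its methylation lay away from the start: 44 of 171 control calls within 250 bp were methylated and 28 of 30 at 250 to 750 bp upstream.

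Sycp1, Sycp3 and Hormad1 act on meiotic chromosomes. Sycp1 forms the transverse filaments and Sycp3 the lateral elements of the synaptonemal complex, and Hormad1 marks chromosome axes that have not yet paired. Hormad1 (ENSMUSG00000028109.8, chr3:95363599-95391593, plus strand, 16 exons) ran from 38.9% to 79.3% in control libraries with at least 5 calls (median 50.3%) and from 6.67% to 34.4% in Dnmt1 KO (median 24.3%) at days 3 to 11, with no overlap. Its difference was -32.8 ± 7.11 points (adjusted p = 0.000445; 211 and 212 calls).

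Sycp1 (ENSMUSG00000027855.8, chr3:102622422-102740023, minus strand, 33 exons) had 53.1% of 256 calls methylated in control and 26.8% of 153 in Dnmt1 KO, a difference of -26.3 ± 7.48 points (adjusted p = 0.00505). Its libraries with at least 5 calls overlapped, at 43.1% to 66.7% in control and 0% to 60.0% in Dnmt1 KO. The call rested on the Dnmt1 KO library of day 6 (3 of 53 calls methylated), without which the difference was -15.1 points (adjusted p = 0.106). Without Dnmt1 KO day 3 replicate 2 (24 of 48 calls methylated) it was -36.9 points. Sycp3 (ENSMUSG00000020059.3, chr10:87922314-87935981, plus strand, 9 exons) had 44.0% of 159 and 22.7% of 194, a difference of -21.3 ± 8.83 points (adjusted p = 0.0381), the call nearest to the threshold. Its libraries also overlapped, at 26.1% to 63.2% and 8.70% to 46.4%, and within Dnmt1 KO its fall from day 1 (-28.5 ± 14.6 points) did not pass (adjusted p = 0.106). The genotype call was lost without any 1 of 6 libraries, namely replicate 1 of either genotype at day 3, 6 or 11, with adjusted p from 0.0517 (without control day 6) to 0.123 (without Dnmt1 KO day 6), while the difference stayed between -21.0 and -17.0 points.

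Brdt, a testis bromodomain protein that reads acetylated histones in spermatogenic chromatin, and Slc25a31, a germ cell ADP/ATP carrier of the mitochondrion, were also lower. Brdt (ENSMUSG00000029279.9, chr5:107760178-107816077, plus strand, 19 exons) ran from 43.8% to 88.0% over 7 control libraries of days 3 to 11 (median 60.0%) and from 11.11% to 28.0% over 6 knockout libraries (median 21.4%), with no overlap. Its difference was -41.5 ± 7.07 points (adjusted p = 5.04e-05). Slc25a31 (ENSMUSG00000069041.6, chr3:40512777-40529515, plus strand, 6 exons) had 67.8% of 202 control calls and 23.4% of 137 knockout calls methylated, a difference of -44.5 ± 7.02 points (adjusted p = 2.79e-05), with libraries at 42.9% to 78.8% and 4.76% to 55.6%.

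In 3 of the 10 genes (Asz1, Hormad1 and Brdt) every knockout library of days 3 to 11 with at least 5 calls thus lay below every such control library, against 22.4% of the 22249 starts with at least 5 such libraries per genotype. In the order of knockout levels, from Mael (9.43%) and Stk31 (15.8%) through Brdt, Ddx4, Hormad1, Sycp3, Asz1 and Slc25a31 (20.8% to 23.4%) to Dazl and Sycp1 (26.4% and 26.8%), neighbouring genes had overlapping intervals. At days 6 to 11 alone the order differed, with Hormad1 highest (23.1%) and Sycp1 at 16.2%. The 10 genes lay at 28.0% to 74.6% in control over all days, and at 34.1% to 81.5% in control days 3 to 11. In Dnmt1 KO days 3 to 11 they lay within 9.43% to 26.8%. Of CpG-rich starts that were at 30% or more in control (1157 starts), the median in Dnmt1 KO days 3 to 11 was 12.4% (quartiles 7.89% and 20.2%), and that of the 10 germline starts was 22.7%. Their control medians were 43.4% and 55.8%, so the germline starts were also higher to begin with, and Ddx4 was below the 30% that defines the class. The difference in Dnmt1 KO was not tested. The class was drawn by CpG count and control level, and it holds the germline genes other than Ddx4.

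**Figure D3:**
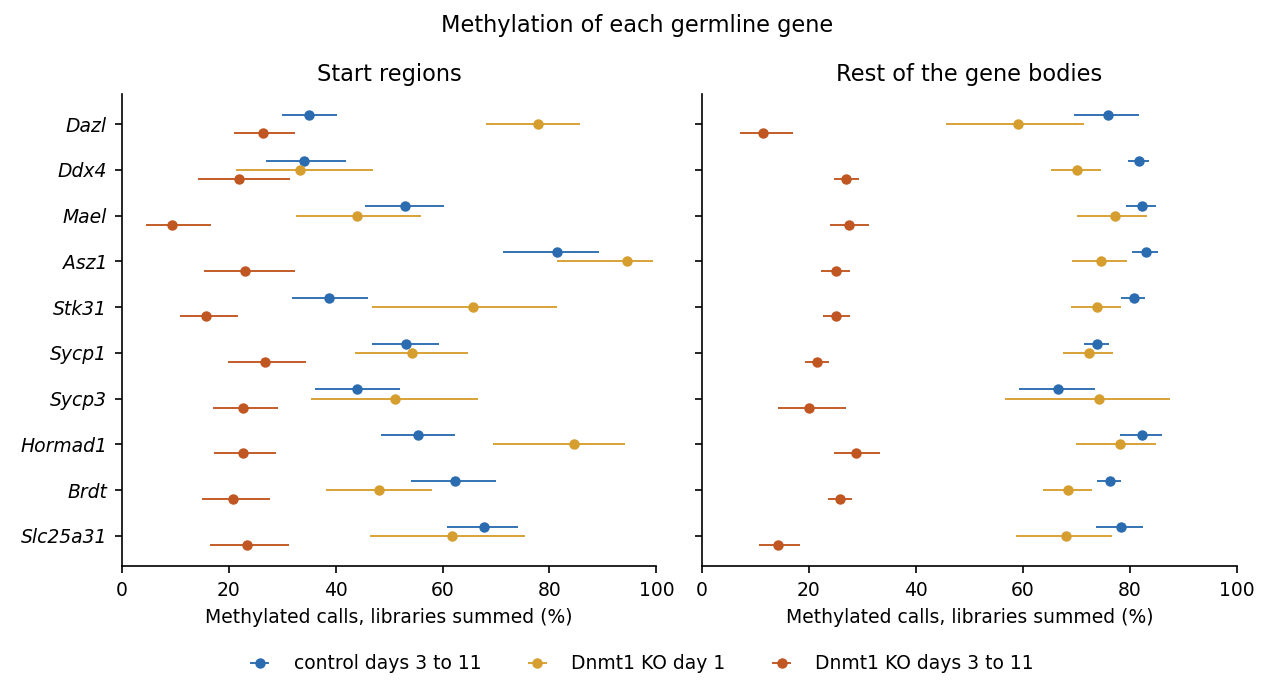
Methylated share of calls (%) of each germline gene, libraries summed, in control days 3 to 11, Dnmt1 KO day 1 and Dnmt1 KO days 3 to 11, for start regions (left) and gene bodies (right). Bars are 95% exact intervals of the calls; at the starts Dazl and Ddx4 show the smallest gap between control and Dnmt1 KO, and in the gene bodies each gene shows a wide one.

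Tested day by day, which needs at least 10 calls in each of the 10 groups of genotype and day, 7 of the 10 starts entered (Ddx4, Sycp1 and Hormad1 held too few calls on 1 day each). At day 1, 0 of 7 were lower in Dnmt1 KO, against 0.0428% of the 14027 starts tested (3 of 7 at an unadjusted p under 0.05, in both directions; 0 by limma on percentages). At day 3, 0 of 7 were lower against 8.01% (3 at an unadjusted p under 0.05; 2 by limma). At day 6, with 1 library per genotype and the spread taken from the other days, 2 of 7 were lower (Mael and Slc25a31) against 11.6%, which has no replicate check of its own. At day 9 these were 2 of 7 (Asz1 and Stk31) against 13.8%, and at day 11 2 of 7 (Asz1 and Slc25a31) against 11.5%.

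Between days 1 and 3 within Dnmt1 KO, 1 of 7 was lower (Asz1, -67.4 ± 12.6 points, adjusted p = 0.0107) against 4.71% of starts, and between days 3 and 11, 0 of 7 against 0.0356% (0 at an unadjusted p under 0.05, 0 by limma). The genotype difference itself changed between days 1 and 3 in 0 of 7 starts against 1.50%, with the lowest adjusted p at 0.0914 for Asz1 (Wald test, 1 at an unadjusted p under 0.05), and between days 3 and 11 in 0 of 7 against 0.135% (0 at an unadjusted p under 0.05). In simulated data for the day 3 comparison, 4 of 100 starts given a fall of 30 points were recovered and 37 of 100 given 50 points. With days 3 to 11 as 1 level, 71 of 100 and 100 of 100 were. These were the only starts lowered among 14027, whereas 8.01% of starts passed at day 3 in the data. The 14027 starts were those of the test by day, without Ddx4, Sycp1 and Hormad1, for both comparisons. All lowered starts were over 50% in control, a level that Dazl, Ddx4, Stk31 and Sycp3 did not reach. An adjusted p is harder to reach where few starts move, so these rates do not give the reach of the test on the data. Recovery on other single days was not simulated. The counts of single days changed when 1 library was left out (range 0 to 3), as given in the closing section.

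The gene bodies were lower in Dnmt1 KO from day 3 on, as were nearly all others. At day 1, 2 of 10 were lower, Brdt (-15.5 ± 4.20 points, adjusted p = 0.0126) and Ddx4 (-12.2 ± 4.08 points, adjusted p = 0.0408), against 6.66% of the 19642 bodies tested. With days 3 to 11 as 1 level, the same day 1 comparison had 0 of 10 lower (2 at an unadjusted p under 0.05) against 0.0138% of 21662 bodies, with adjusted p of 0.258 for Brdt and 0.289 for Ddx4. The count by day fell to 0 without control replicate 1 or Dnmt1 KO replicate 1 of day 1 and to 1 without either replicate 2. At day 3 all 10 were lower against 94.8%, at day 6 9 of 10 (all but Sycp3, which had 26 and 19 calls) against 95.6%, again from 1 library per genotype with the spread of the other days, at day 9 10 of 10 against 96.5% and at day 11 10 of 10 against 95.9%.

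Within Dnmt1 KO all 10 bodies were lower at day 3 than at day 1 (92.8% of bodies), and 2 of 10 were lower still at day 11 than at day 3, Stk31 (-14.3 ± 4.64 points) and Ddx4 (-12.8 ± 4.32 points), against 13.0%. The latter count fell to 0 without either day 11 replicate or without replicate 1 of day 3 of Dnmt1 KO, and to 1 without replicate 2 of day 3. With days 3 to 11 as 1 level, 10 of 10 were lower than control against 98.1% of 21662 bodies, and 10 of 10 lower than at day 1 against 95.4%. The median difference from control was -54.8 points, against -49.4 over all bodies.

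Dazl and Slc25a31 had the lowest bodies in Dnmt1 KO. At days 3 to 11, 20 of 175 calls of Dazl were methylated (11.4%, 95% interval 7.12% to 17.1%) and 47 of 332 of Slc25a31 (14.2%, 10.6% to 18.4%), whereas the other 8 bodies lay between 20% (Sycp3) and 28.9% (Hormad1). Control bodies of days 3 to 11 lay between 66.7% (Sycp3) and 82.9% (Asz1). In Dnmt1 KO days 3 to 11 the start was above the body in Dazl (26.4% against 11.4%), Slc25a31 (23.4% against 14.2%), Sycp1 (26.8% against 21.4%) and Sycp3 (22.7% against 20%). It was below the body in the other 6, with the widest gap in Mael (9.43% against 27.4%). At days 6 to 11 alone the side changed in Sycp1 (16.2% against 20.4%) and Asz1 (20.9% against 19.7%). Sycp3 was then nearly level (19.5% against 19.3%), while Dazl (20.8% against 8%) and Slc25a31 (19.6% against 11.3%) kept the gap. In control at days 3 to 11 the start of Dazl was far below its body (35.0% against 76.0%), as were those of Ddx4 (34.1% against 81.7%) and Stk31 (38.8% against 80.7%). The start of Asz1 was close to its body (81.5% against 82.9%).

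Methylation dipped around the start of the germline genes. In control, methylation summed over the 10 genes was 81.6% of 305 calls at 250 to 500 bp upstream, 40.8% of 519 calls in the 250 bp before the start and 41.5% of 620 calls in the 250 bp after it. It was 45.3% and 46.1% in the following bins up to 750 bp and 77.8% at 1250 to 1500 bp downstream. The drop coincides with the CpG-rich core, as the 500 bp around the start hold 391 of the CpGs of the 10 genes. Calls were spread unevenly over genes downstream: at 750 to 1000 bp the summed level was 29.3%, and the mean of the 10 gene levels 60.5%.

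In Dnmt1 KO days 3 to 11 the profile had another shape. From 2000 to 1000 bp upstream its 4 bins were at 15.8%, 13.1%, 24.4% and 23.9%, close to the 14.95% and 19.7% of the bins on either side of the start, whereas control was at 74.8% to 83.5% there. Its highest upstream bin was at 500 to 750 bp, with 43.0% of 121 calls. The core within 250 bp of the start had 110 of 631 calls methylated (17.4%) and the upstream edge, 250 to 750 bp before it, 125 of 373 (33.5%), against 469 of 1139 (41.2%) and 368 of 448 (82.1%) in control. By library, the edge was above the core in 9 of 9 control libraries (73.4% to 92.1% against 25% to 56.4%) and in 6 of 7 knockout libraries (21.1% to 62.0% against 7.69% to 37.0%). By gene, the knockout level of the edge ran from 7 of 38 calls in Mael to 22 of 49 in Sycp3, and the control level from 18 of 27 in Ddx4 to 28 of 30 in Stk31. The edge was set after the profile had been seen, so these values are a description.

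**Figure D4:**
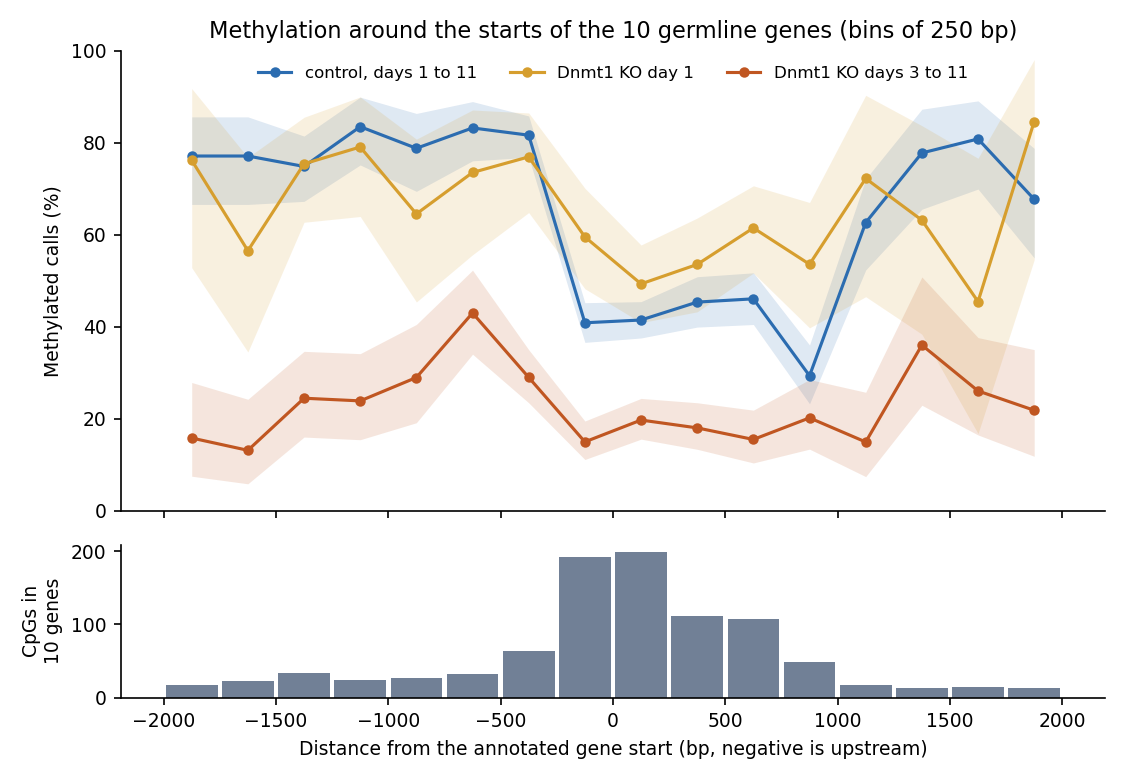
Top, methylated share of calls (%) in bins of 250 bp against the distance from the annotated start (bp), summed over the 10 germline genes, for the 9 control libraries, Dnmt1 KO day 1 and Dnmt1 KO days 3 to 11; bands are 95% exact intervals. Bottom, CpGs per bin in the 10 genes; control drops from 81.6% to 40.8% where the CpGs are most crowded, and Dnmt1 KO days 3 to 11 drops from 29.0% to 14.95% at the same place but is at 13.1% to 24.4% beyond 1000 bp upstream.

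The start regions of 48 further germ cell genes, listed by name, were examined in the same way. With days 3 to 11 as 1 level, 44 could be tested, of which 34 were lower in Dnmt1 KO (77.3%, against 56.1% of all starts) and 0 were higher. The share over all starts is again not matched for control level. Of the 30 tested genes at 30% or more in control, 28 were lower. Among piRNA pathway and Tudor genes 14 of 15 were lower, and among genes of the meiotic axis, synapsis and recombination 9 of 14. Among germ cell RNA-binding, regulatory and other proteins 6 of 10 were lower, and among testis copies of enzymes and structural proteins 5 of 5. In that order the control medians were 64.4%, 28.5%, 57.7% and 83.2%, and 10, 12, 7 and 1 of the tested genes had at least 50 CpGs. Whether the groups differ beyond this was not tested.

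The highest control levels belonged to Pgk2 (92.6%), a testis glycolytic enzyme with 17 CpGs in its start region, Fkbp6 (91.1%), a co-chaperone of the piRNA pathway with 68, and Tex101 (90.1%), a germ cell surface protein with 44. In Dnmt1 KO days 3 to 11 these stood at 31.1%, 27.8% and 25.5%, and all 3 passed. The lowest were Prdm9 (5.33%), which places meiotic recombination sites, Ddx25 (6.89%), a testis RNA helicase, and Syce2 (8.23%), of the synaptonemal complex. These had 82 to 110 CpGs and knockout levels of 1.75%, 3.51% and 2.22%, and none of the 3 passed. Germ cell genes with CpG-rich starts were thus not uniformly methylated in control: of the 30 tested with at least 50 CpGs, 16 were at 30% or more and 3 below 10%.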

How the data were processed

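Methylation calls were read from 18 whole-genome bisulfite libraries. According to their methods, the authors used Trim Galore for trimming and Bismark for paired-end alignment to NCBIM37, then removed duplicates and extracted CpG calls. The Bismark version differs between the sources (0.12.3 in the submitters' processing notes). The deposited tables hold counts of methylated and of unmethylated calls per cytosine and strand, unnormalized, and a deposited percent that was not used. Cytosines outside a CpG of NCBIM37 (at most 0.120% of those listed per library) were left out.

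Counts were summed 1 kb either side of each annotated start (GENCODE vM1) and over the rest of the gene. Groups came from the labels. Each gene with at least 10 calls in each group was tested with a level per genotype and day and a quasi-binomial deviance F test, the dispersion being moderated on the number of CpGs (limma 3.58.1, R 4.3.3) and floored at 1. P-values were adjusted by Benjamini-Hochberg over all genes tested. limma on percentages, other windows and minimums, a replicate block and leaving out each library were the alternatives (the day 6 libraries, alone in their groups, only with days 3 to 11 as 1 level, and as a whole day for the summed levels). The study's Wilcoxon test on windows was not used, as it treats windows as replicates. The test was checked on simulated data drawn for the genes of the test by day.

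All 10 germline genes are named, as are the 3 highest and 3 lowest tested genes of the wider list by control start level, and the 5 other genes whose start levels were nearest to the median profile of the 10. Genes, lists, motifs and tests were chosen with earlier results of these data known, and treating days 3 to 11 as 1 level was added after seeing the data. Shares carry 95% exact (Clopper-Pearson) intervals, computed with scipy 1.17.1. At 151 to 360 calls per library over the 10 starts, single genes on single days are imprecise.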

Additional observations from a re-analysis of the deposited data

Results flagged for a closer look

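Ddx4 had too few calls at day 6 for the test by day, and its start levels there ran against those of day 9. At day 6 the only Dnmt1 KO library was above the only control library (14.3% of 14 calls against 11.11% of 9, a difference of 3.17 points). At day 9 both Dnmt1 KO libraries (0% of 3 calls and 17.1% of 35) were below both control libraries (46.7% of 15 and 50% of 4). The summed difference was -31.6 points on 38 and 19 calls. The libraries with 3 and 4 calls fall under the minimum of 5 calls used for the library ranges. The difference between these days was not tested.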

How the results depend on the processing

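Of 406 recomputed values, 360 kept their direction and side of the threshold, or stayed within 1.5 times the count, and 0 reversed. Most of these values were counts of lower genes, which by definition could only stay, fall or rise, so the 0 says nothing about them. The summed start difference of -23.6 points ran from -28.2 to -23.4 under 6 other settings and from -25.6 to -21.7 without single libraries of days other than 6. The body difference of -46.2 ran from -46.2 to -45.8 under 2 settings and from -46.7 to -45.6 without such libraries. Without day 6, added after seeing the data, they were -16.9 and -41.7 points, as day 6 had the widest gaps. With days 3 to 11 as 1 level, 7 to 10 starts were lower under other settings and 6 to 9 without single libraries, against 8 (6 without control day 1 replicate 1, with 8 genes tested, or Dnmt1 KO day 6), and all 10 bodies in every setting.

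Counts of lower starts on single days moved most. A minimum of 20 calls gave 0 at day 6, 0 at day 9, 1 at day 11 and 0 between days 1 and 3 of Dnmt1 KO (2 genes tested), and windows of 500 bp gave 0, 0, 1 and 0 (1 gene tested). A minimum of 3 calls gave 4 at day 11 and 2 between days 1 and 3. Windows of 2 kb gave 4 at day 3, 5 at day 6, 6 at day 9, 4 at day 11 and 4 between days 1 and 3. A minimum in the compared groups only, added after seeing the data, gave 1 at day 3, 4 at day 11 and 3 between days 1 and 3. limma gave 2 at day 3. The causes of these were not tested.

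Without single libraries, those of day 6 not being left out here, the starts numbered 1 to 2 at day 6 (1 without control day 1 replicate 1), 0 to 2 at day 9 (lower without any day 9 library), 0 to 3 at day 11 (0 without Dnmt1 KO and 1 without control replicate 1 of day 11) and 0 to 2 between days 1 and 3 of Dnmt1 KO (0 without Dnmt1 KO day 3 replicate 2). Bodies numbered 0 to 2 at day 1 and 0 to 3 between days 3 and 11 of Dnmt1 KO.

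The correlations of deviations of same-numbered libraries over 13366 gene bodies were -0.0056, -0.0120, 0.0108 and 0.0080 at days 1, 3, 9 and 11. A correlation leaves out any shift shared by all genes, so whether replicate numbers paired the libraries was not tested. limma with the replicate block gave 1 lower start at day 3 and 1 lower body at day 1, and changed no other count by over 1.5 times. At 1.202 to 1.253 calls per listed cytosine, single CpGs could not be compared.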

Other observations

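Neighbouring calls at the germline starts were in the same state in most pairs. Pairs of cytosines with 1 call each, on the same strand and at most 50 bp apart in the same library, numbered 1533 in control over the 10 start regions, of which 31.8% were both methylated, 42.5% both unmethylated and 25.6% different. In Dnmt1 KO days 3 to 11 (952 pairs) the shares were 11.03%, 69.4% and 19.5%. Over all tested start regions 7.28% of control pairs and 5.61% of those of Dnmt1 KO days 3 to 11 were different, where most pairs were both unmethylated (80.8% and 91.3%). By gene, the share of different pairs in control ran from 15.6% in Dazl (275 pairs) to 36.6% in Sycp1 (238 pairs). The tables do not say which calls came from the same read, so these values describe neighbourhoods and not molecules.

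The 5 genes outside the set whose start levels over the 10 groups of genotype and day were nearest to the median of the 10 germline genes, among 6367 with at least 20 calls in each group, were Gm15247, Gm17114, Gm13007, RP23-324B17.1 and Tlr6, a Toll-like receptor. Their root mean square distance from that median was 6.48 to 9.58 points. The start of Gm15247, with 91 CpGs, was at 50.8% in control and 14.8% in Dnmt1 KO days 3 to 11.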
